A study of Sus scrofa with 67 samples.

Results

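Of the 25322 Ensembl genes in the count table, 6 were read in the oviduct on every sampled day of the oestrous cycle and were close to absent from the endometrium and the ovary. They were chosen from the counts themselves. Scaled counts (CPM, a gene's count divided by the library's total count and multiplied by 1000000) were averaged over the libraries of a tissue and day, and 4 limits were set on these averages. The average had to be at least 5 CPM on all 7 oviduct days and at most 1 CPM in all 14 groups of the endometrium and the ovary. The average of day 9 plus 1, divided by that of day 0 plus 1, had to lie between 0.5 and 2, and the highest oviduct day had to be under 2 times the second highest. At 5 CPM or more on all oviduct days there were 10419 genes, and 9228 genes stayed at or under 1 CPM in the other tissues, but only 8 genes met both limits and 6 met all 4. The members are LRRC2 (ENSSSCG00000026945), a protein with leucine-rich repeats, and 5 genes that the table of gene names used here pairs with no symbol, ENSSSCG00000003496, ENSSSCG00000005377, ENSSSCG00000011574, ENSSSCG00000016514 and ENSSSCG00000028676. The tissue difference and the ratio of day 9 to day 0 chose these genes and are therefore descriptions, not findings.

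The study sampled reproductive tissues of gilts, young female pigs that had already cycled, from a cross of Landrace and Yorkshire, over the days of the oestrous cycle, with day 0 as the first day of oestrous behaviour. The paper took the tissues by hysterectomy from different gilts on each day, so the days are compared between animals. The labels name no treatment and separate the animals by day alone. The tissues were oviduct taken from its ampulla, endometrium freed of the muscle layer, and a whole ovary, and poly-A RNA of each was sequenced at steps of 3 days from day 0 to day 18. Of the 66 libraries, 22 came from the oviduct, with 3 for each day except for 2 on day 6 and 4 each on days 12 and 15. A library is named here by the number its column carries within a tissue and day. Nothing in the labels says from which gilt a library came, and the sources differ on the number of gilts, so p-values measure the spread between these libraries.

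The oviduct, or fallopian tube, carries gametes and the early embryo and is the site of fertilisation. Its lining is a single layer of multiciliated cells, which move fluid and ova, and secretory cells, which release oviductal glycoprotein, and it is wrapped in smooth muscle. Oestradiol dominates around day 0 and progesterone from the corpora lutea dominates the middle of the cycle, and the height, secretion and ciliation of the oviductal lining are known to follow these hormones.

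Markers of these cells were in place. FOXJ1, the master regulator of motile cilia, was between 909 and 1810 CPM in the 22 oviduct libraries and between 63.1 and 538 CPM in those of the endometrium. OVGP1, which encodes oviductal glycoprotein, reached 203000 CPM in an oviduct library of day 3 and was as low as 1140 CPM in one of day 9, so that this secreted product took a large and variable share of the reads. CPM of every other gene is lowered where OVGP1 is high, which is why the tests used TMM normalisation. The smooth muscle markers DES, MYH11, ACTA2, CNN1 and ACTG2 summed to between 1040 and 27300 CPM per oviduct library, against a median of 352 CPM in the endometrium. The ciliated cell list was at 1390 to 2720 CPM, the secretory epithelium list at 2980 to 204000 CPM, the stroma list at 353 to 1510 CPM in the oviduct, blood and immune cells at 17.4 to 87.1 CPM, endothelium at 40.3 to 186 CPM, the granulosa and luteal list at 4.08 to 232 CPM and the oocyte list at 26.8 to 79 CPM. The mesothelial marker that could be looked up had at most 1.04 CPM. The oviduct samples were bulk tissue, in which fewer cells of a type and less RNA per cell cannot be told apart.

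The 6 genes together had 16427 counts in the oviduct, 365 in the ovary and 111 in the endometrium, over 22 libraries of each. Their summed level in a library had a median of 69.4 CPM in the oviduct (31 to 124 CPM), 0.868 CPM in the ovary (0.259 to 10.3 CPM) and 0.353 CPM in the endometrium (0 to 2.34 CPM). The lowest oviduct library, with 345 counts, therefore lay above the highest library of the other tissues, with 106 counts, as the choice of genes required of the averages but not of each library.

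**Figure D1:**
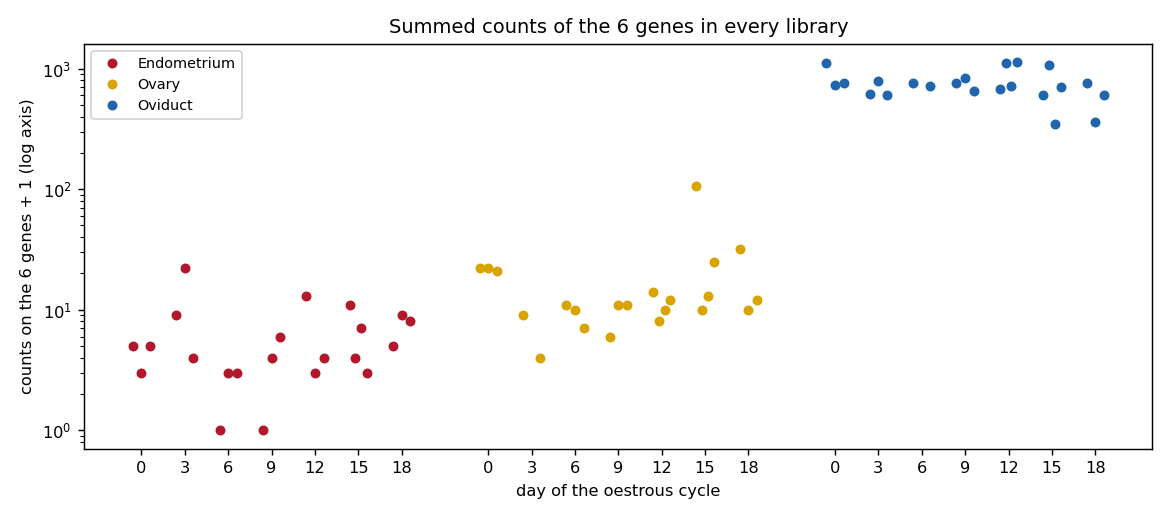
Counts summed over the 6 genes (vertical log axis, counts + 1) in every library, by day of the cycle and coloured by tissue. The oviduct libraries lie between 345 and 1124 counts, while the ovary library numbered 1 of day 15, with 106 counts, is the highest point outside the oviduct.

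In the endometrium, ENSSSCG00000003496 had 4 counts over all 22 libraries, ENSSSCG00000005377 had 3, ENSSSCG00000028676 had 5 and ENSSSCG00000011574 had 6. For these genes between 18 and 20 endometrium libraries had no read at all. At the depths of all 66 libraries, from 8962103 to 13442083 counts, 3 counts correspond to between 0.223 and 0.335 CPM, the limit under which a level was taken as not detectable. The remaining genes left more reads there, with 39 counts of ENSSSCG00000016514, of which 9 came from the library numbered 2 of day 3, and 54 counts of LRRC2, again with 9 in that library. That library, of the endometrium on day 3, was the highest in the endometrium for both genes at 1 CPM.

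The ovary held between 47 counts (ENSSSCG00000028676) and 89 counts (LRRC2) of each gene over its 22 libraries. A single library, numbered 1 of day 15, held 106 of the 365 ovary counts, while the other ovary libraries had at most 31 (median 10). It had 37 of the 68 ovary counts of ENSSSCG00000011574 and 25 of the 47 of ENSSSCG00000028676, and was the highest ovary library for LRRC2 (17 counts) and ENSSSCG00000016514 (13 counts) as well. Markers of ciliated cells and smooth muscle moved with it. FOXJ1 was at 245 CPM in this library, with 2523 counts against at most 242 counts in any other ovary library, the 4 ciliated cell markers summed to 315 CPM against 3.1 to 37.7 CPM, and smooth muscle markers to 15900 CPM against 201 to 6200 CPM. The secretory epithelium list was at 2410 CPM against 15.6 to 1990 CPM. Its marker OVGP1 was not highest here, with 1710 CPM against 1970 CPM in the ovary library numbered 2 of day 0, where the 6 genes had 21 counts. The ovary average of day 15 for ENSSSCG00000011574 was 0.942 CPM with this library and 0.0586 CPM without it, and that of ENSSSCG00000028676 was 0.749 and 0.19 CPM. Which tissue these reads came from was not tested.

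The limits left room for the day averages to vary, and they did. The highest oviduct day average was between 2.2 (ENSSSCG00000011574) and 3.43 times (LRRC2) the lowest. The SD of the day means on the log2(CPM + 1) scale was 0.435 to 0.769, against a median of 0.256 over all genes tested, and between 81.8% and 96.1% of those genes had a smaller one. This SD includes the spread between the few libraries of a day, which was not taken out. The libraries behind the averages were uneven as well. Each gene was measured in every oviduct library, with at least 5 counts, and the ratio of the highest to the lowest library ran from 8.99 for ENSSSCG00000016514 to 50.5 for ENSSSCG00000003496. Within days, the SD of log2(CPM + 1) between libraries was 1.24 for ENSSSCG00000003496, 1.11 for ENSSSCG00000005377, 0.732 for ENSSSCG00000028676, 0.688 for ENSSSCG00000016514, 0.629 for ENSSSCG00000011574 and 0.552 for LRRC2, while the median over all genes tested in the oviduct was 0.318. Between 86.5% of those genes (for LRRC2) and 99.5% (for ENSSSCG00000003496) had a smaller SD. Since low counts raise this SD by counting noise, the biological coefficient of variation from edgeR, which takes counting noise out, was also compared. It was 0.846 for ENSSSCG00000003496, 0.683 for ENSSSCG00000005377 and 0.405 to 0.489 for the others, against a median of 0.252, and between 80.2% and 97.8% of the genes had a smaller one. The name "stable" thus covers only the limits used to choose these genes, since both their day averages and their libraries of the same day varied more than those of most genes tested.

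**Figure D2:**
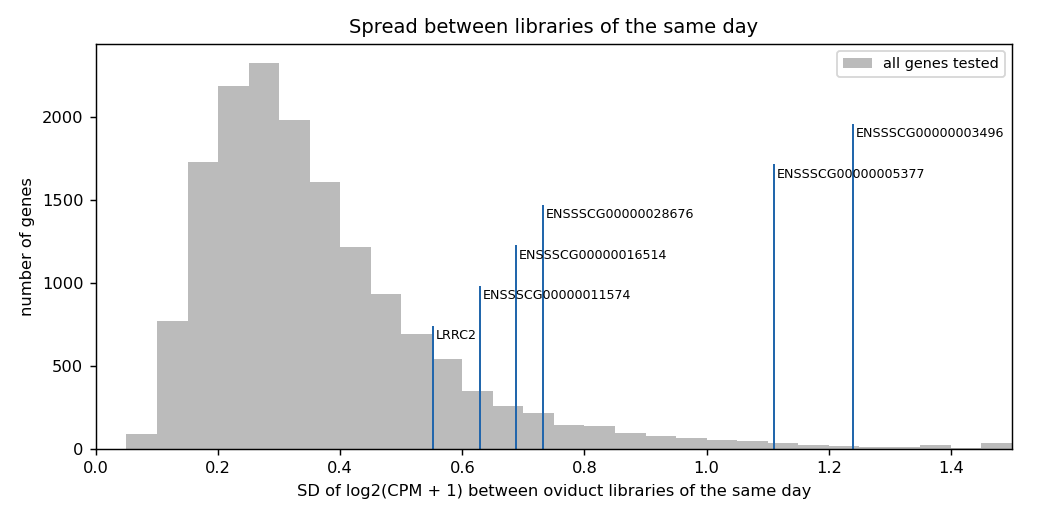
Number of genes (vertical axis) by the SD of log2(CPM + 1) between oviduct libraries of the same day (horizontal axis, values over 1.5 placed in the last bar), for all genes tested. Vertical lines mark the 6 genes, all of which lie to the right of the median of 0.318, with ENSSSCG00000003496 the farthest at 1.24.

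**Figure D3:**
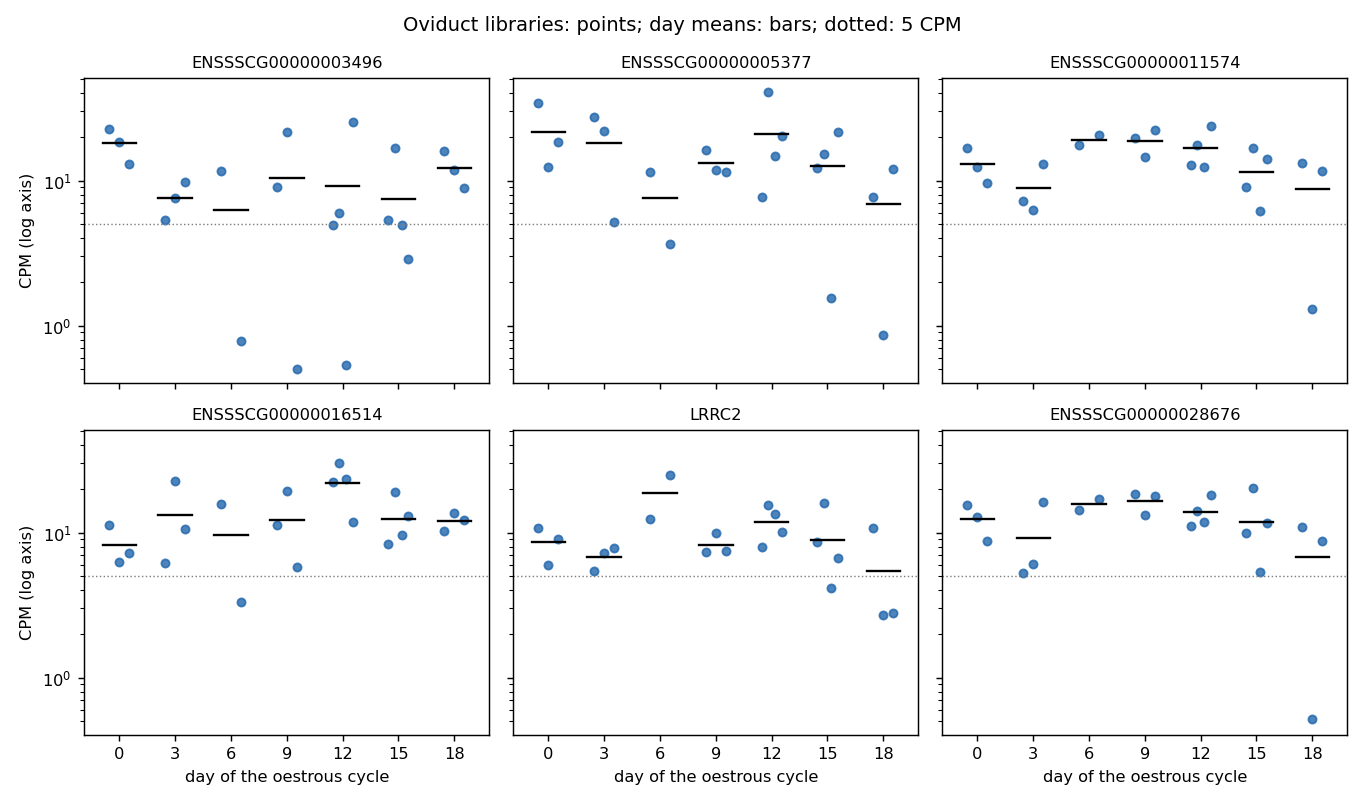
CPM (vertical log axis) of the 6 genes in each oviduct library (points) by day of the cycle, with day means as bars and the limit of 5 CPM dotted. ENSSSCG00000003496 falls under 1 CPM in a library of each of days 6, 9 and 12, and 4 genes have their lowest point in a library of day 18.

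ENSSSCG00000003496 was the most uneven of the 6. It was at 22.6, 18.5 and 13 CPM on day 0 and at 5.34, 7.58 and 9.84 CPM on day 3. Day 6 had 11.7 and 0.786 CPM, and day 9 had 8.96, 21.6 and 0.503 CPM. The libraries of day 6 and day 9 thus held both high and very low values on the same day. On day 12 the values were 4.92, 6.03, 0.536 and 25.4 CPM, on day 15 they were 5.35, 16.8, 4.96 and 2.88 CPM, and on day 18 they were 16, 11.9 and 8.89 CPM. In 3 libraries the gene had 5 or 8 counts, and in the other 19 it had between 29 and 260. These 3 are the libraries numbered 3 of days 6, 9 and 12, with exact 95% Poisson intervals of 0.339 to 1.55, 0.163 to 1.17 and 0.174 to 1.25 CPM, which cover counting error only. In the same 3 libraries FOXJ1 was at 1520, 1460 and 1340 CPM, inside its range over the tissue, and ENSSSCG00000011574 was at 20.5, 22.2 and 12.3 CPM. ENSSSCG00000028676 was at 17.1, 17.9 and 11.8 CPM there, and LRRC2 at 24.9, 7.45 and 13.4 CPM. ENSSSCG00000005377 was at 3.63, 11.4 and 14.7 CPM. ENSSSCG00000016514 was at 3.34, 5.84 and 23.5 CPM, of which 3.34 CPM was its lowest value in the oviduct. Every library of day 0 lay above every library of day 3 for ENSSSCG00000003496, but the log2 fold change of day 3 against day 0 was -1.30 (SE 1.03, adjusted p = 0.637 by edgeR's quasi-likelihood fit over all genes, adjusted after Benjamini and Hochberg), with a 95% interval from -3.46 to 0.87.

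ENSSSCG00000005377 had the most counts of the 6. It was at 34.4, 12.4 and 18.6 CPM on day 0, at 27.3, 21.8 and 5.18 CPM on day 3, and at 11.4 and 3.63 CPM on day 6. On day 9 its libraries lay close together at 16.3, 11.8 and 11.4 CPM, whereas day 12 spread over 7.67, 40.6, 14.7 and 20.4 CPM. Later it was at 12.2, 15.2, 1.56 and 21.6 CPM on day 15 and at 7.75, 0.869 and 12.1 CPM on day 18. Both libraries of day 6 and all 3 of day 18 were below the lowest of day 0. The log2 fold change of day 6 against day 0 was -1.88 (SE 0.99, adjusted p = 0.341 from edgeR). That of day 18 against day 0 was -1.80 (SE 0.85), with a 95% interval from -3.58 to -0.02 before adjustment and an adjusted p of 0.253 from edgeR. The lowest library, numbered 2 of day 18, had 10 counts.

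ENSSSCG00000011574 and ENSSSCG00000028676 followed each other from library to library. ENSSSCG00000011574 was at 16.6, 12.5 and 9.59 CPM on day 0, 7.27, 6.32 and 13.1 CPM on day 3, and 17.7 and 20.5 CPM on day 6. It was at 19.5, 14.6 and 22.2 CPM on day 9, 12.9, 17.5, 12.3 and 23.9 CPM on day 12, 9, 16.7, 6.16 and 14 CPM on day 15, and 13.2, 1.3 and 11.6 CPM on day 18. Both libraries of day 6 and 2 of the 3 of day 9 were above all of day 0, and the library numbered 2 of day 18 stood far below the rest. ENSSSCG00000028676 was at 15.4, 12.9 and 8.73 CPM on day 0, 5.25, 6.05 and 16.4 CPM on day 3, and 14.4 and 17.1 CPM on day 6. It was at 18.4, 13.3 and 17.9 CPM on day 9, 11, 14.2, 11.8 and 18.2 CPM on day 12, 9.89, 20.2, 5.33 and 11.6 CPM on day 15, and 10.9, 0.521 and 8.79 CPM on day 18. The same libraries were low for both genes, namely those numbered 1 and 2 of day 3, 3 of day 15 and 2 of day 18.

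ENSSSCG00000016514 had its highest day average on day 12. Its values were 11.3, 6.29 and 7.26 CPM on day 0, 6.17, 22.6 and 10.7 CPM on day 3, 15.8 and 3.34 CPM on day 6, and 11.2, 19.5 and 5.84 CPM on day 9. On day 12 it was at 22.3, 30, 23.5 and 11.8 CPM, on day 15 at 8.29, 19.1, 9.56 and 13.1 CPM, and on day 18 at 10.3, 13.7 and 12.2 CPM. Every library of day 12 lay above every library of day 0. The log2 fold change between these days was 1.12 (SE 0.54), with a 95% interval from -0.01 to 2.24 and an adjusted p of 0.163 from edgeR, and it passed the threshold in a fit of only these 2 days (adjusted p = 0.0453).

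LRRC2 had its highest day average on day 6, where its libraries were at 12.4 and 24.9 CPM. It was at 10.8, 6.01 and 8.99 CPM on day 0, 5.43, 7.22 and 7.88 CPM on day 3, and 7.34, 9.94 and 7.45 CPM on day 9. Later it was at 7.97, 15.5, 13.4 and 10.2 CPM on day 12, 8.55, 16, 4.14 and 6.64 CPM on day 15, and 10.8, 2.69 and 2.81 CPM on day 18. Both libraries of day 6 were above all those of days 0, 3 and 9, and 2 of the 3 of day 18 were below all other libraries. From day 12 to day 18 its log2 fold change was -0.94 (SE 0.46, adjusted p = 0.144 from edgeR), with a 95% interval from -1.91 to 0.03. Without the library numbered 1 of day 18, the fold change was -1.79 with an adjusted p of 0.0114 from edgeR.

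The days that the choice of genes did not single out were tested together. Days 3, 6, 12, 15 and 18 were compared in the oviduct with the same edgeR test, in a fit of all 22 libraries that left 15665 genes, all 6 members among them. Of these genes 15.3% differed between the days at an adjusted p under 0.05, and of the 6 members 0 did. At an unadjusted p under 0.05 it was again 0 of the 6, against 34.3% of all genes, and DESeq2 called 0 of the 6. LRRC2 came closest (F = 2.59, adjusted p = 0.178 from edgeR), and passed without the library numbered 1 of day 18 (adjusted p = 0.027 from edgeR). The other adjusted p values were between 0.381 and 0.882. The limit on the highest day bears on these days too, so the 6 genes had less room to differ than the rest.

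Each day was also compared with day 0, as the study did within each tissue. Of the 6 genes, 0 were called on any of days 3, 6, 12, 15 and 18 by edgeR or by DESeq2, and at an unadjusted p under 0.05 the count was 0 on days 3, 6, 12 and 15 and 1 on day 18 (ENSSSCG00000005377). Over all genes tested, 0.3%, 2.16%, 16%, 5.8% and 0.23% were called on days 3, 6, 12, 15 and 18, and 12.7%, 17.7%, 31.2%, 21.7% and 19.4% had an unadjusted p under 0.05. With backgrounds of this size, a count of 0 among 6 genes does not set them apart on any of these days. In the simulated counts, changes were placed on day 12 only, so detection of a change between day 3 and day 0 was not measured. On day 9, the contrast used to choose the genes, 7.3% of all genes and 0 of the 6 were called (24.3% and 0 at an unadjusted p under 0.05, and 0 of the 6 by DESeq2), and their log2 fold changes ran from -1.09 to 0.26. These comparisons share the libraries of day 0.

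Comparisons without day 0 gave the same counts. Between days 3 and 12, 3.57% of all genes and 0 of the 6 were called by edgeR (0 by DESeq2, and 0 at an unadjusted p under 0.05, against 19.5% of all genes). Between days 12 and 18, from the luteal to the next follicular phase, 22.4% of all genes and 0 of the 6 were called (0 by DESeq2, and 0 at an unadjusted p under 0.05, against 37.9% of all genes). The median log2 fold change of the 6 genes was -0.84 from day 12 to day 18, where 5 of the 6 were lower on day 18, with fold changes from -1.44 to -0.61, and ENSSSCG00000003496 was higher at 0.63. This median rested on single libraries of day 18, being -0.52 without the one numbered 2, the lowest of all 22 for 4 of the genes, and -1.27 without the one numbered 1. Over all genes the median was 0.00 and the median of the absolute values was 0.46, against 0.84 for the 6. The narrowest of the 6 intervals, that of LRRC2, ran from -1.91 to 0.03, so that a change of the median size of the 6 was not detectable with these libraries.

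**Figure D4:**
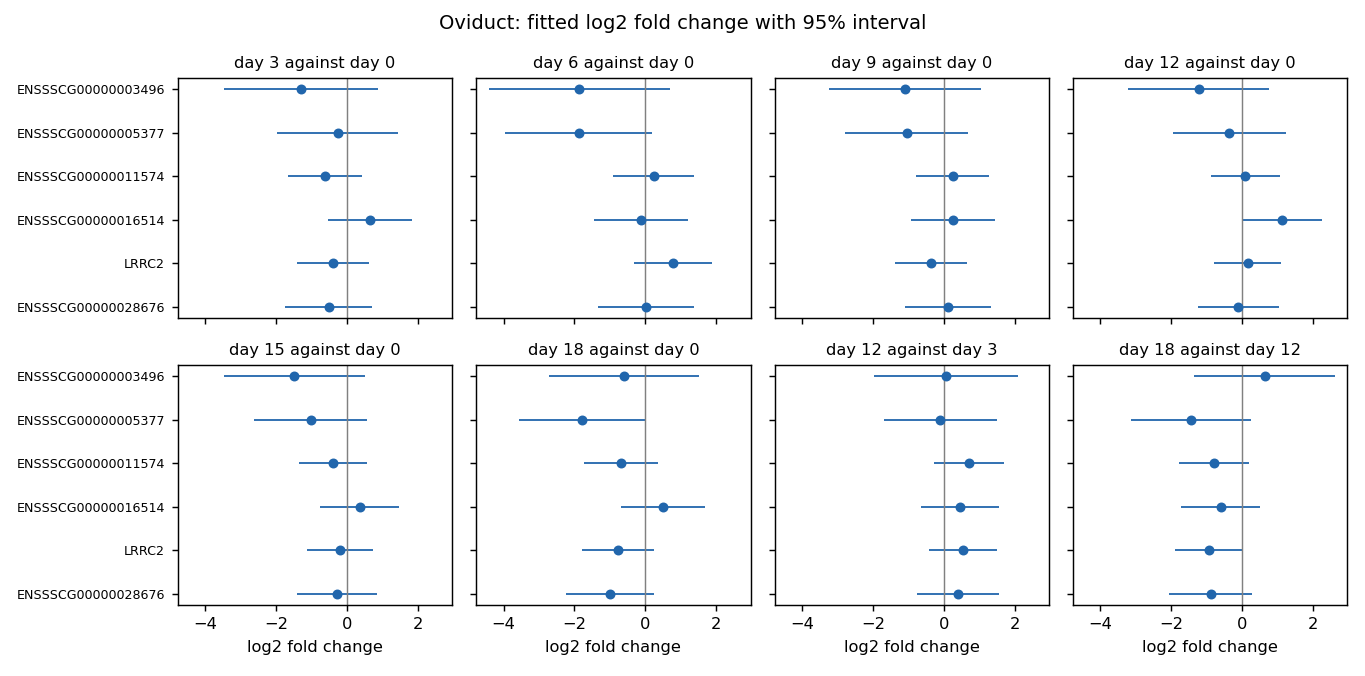
Fitted log2 fold change in the oviduct (horizontal axis) of each of the 6 genes (vertical axis) in 8 comparisons of days, with 95% intervals as bars. ENSSSCG00000003496 and ENSSSCG00000005377 have the widest intervals, and all intervals but that of ENSSSCG00000005377 for day 18 against day 0 include 0.

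The members were then set against each other with the day average removed, as Pearson's r of log2(CPM + 1) over the 22 oviduct libraries. These are descriptions of libraries that share their depth and their reads on OVGP1. Of the 15 pairs, 2 had an r over 0.5, and the median was 0.262 (-0.197 to 0.966), against a mean of 0.0014 over all pairs of genes tested. The 6 genes therefore did not vary as a unit. Among these pairs, ENSSSCG00000011574 and ENSSSCG00000028676 stood out with r = 0.966 (Spearman's rho 0.939, and r = 0.926 without the 2 libraries farthest from the median). Their course was not particular to them. Of all genes tested, 17 had an r over 0.9 with ENSSSCG00000011574 and 35 with ENSSSCG00000028676, and 341 and 328 had an r over 0.8. The pair ENSSSCG00000005377 and ENSSSCG00000011574 had r = 0.561, which was 0.276 without its 2 farthest libraries and so rested on them. ENSSSCG00000003496 had an r of at most 0.417 with any other of the 6.

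Named genes with the most similar course were listed by the same r among the genes with a symbol, a rule chosen after the values of the members were known. For ENSSSCG00000028676 it was ATP2B2 (ENSSSCG00000023084), a plasma membrane calcium pump that exports calcium from the cell, with r = 0.98 (rho 0.956, and r = 0.965 without the 2 farthest libraries). For ENSSSCG00000011574, ATP2B2 was also first among named genes, with r = 0.957 (rho 0.938). Counts of ATP2B2 were 5.77 to 23.3 times those of ENSSSCG00000028676 in a library (median 7.04), with the highest ratio in the library numbered 2 of day 18, where the latter had 6 counts. In the ovary library numbered 1 of day 15, ATP2B2 had 172 counts, 6.88 times the 25 of ENSSSCG00000028676. ATP2B2 itself missed the limit of 1 CPM, with an average of 4.74 CPM in the ovary of day 15 and at most 0.812 CPM in the endometrium, and was at 55.1 CPM or more on every oviduct day. KLHDC7A, a protein with kelch repeats, followed for both identifiers with r = 0.945 and 0.947.

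GABBR2 (ENSSSCG00000027558), a subunit of the GABA-B receptor, was the closest gene of any to ENSSSCG00000005377, with r = 0.954 (rho 0.92, and r = 0.951 without the 2 farthest libraries). It was at 14.6 to 210 CPM in the oviduct libraries (median 72.8) and averaged 0.179 CPM in the endometrium and 1.24 CPM in the ovary. Its counts were 4.28 to 26.5 times those of ENSSSCG00000005377 (median 5.82). The next named gene, MORC3, a nuclear ATPase, had r = 0.834. Gene positions were not used here and the counting is not stated to have used strand, so whether ENSSSCG00000005377, ENSSSCG00000011574 and ENSSSCG00000028676 are separate genes from their partners, pieces of the same transcript or overlapping genes was not tested. ENSSSCG00000011574 and ENSSSCG00000028676 were for that reason not read as independent of each other.

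**Figure D5:**
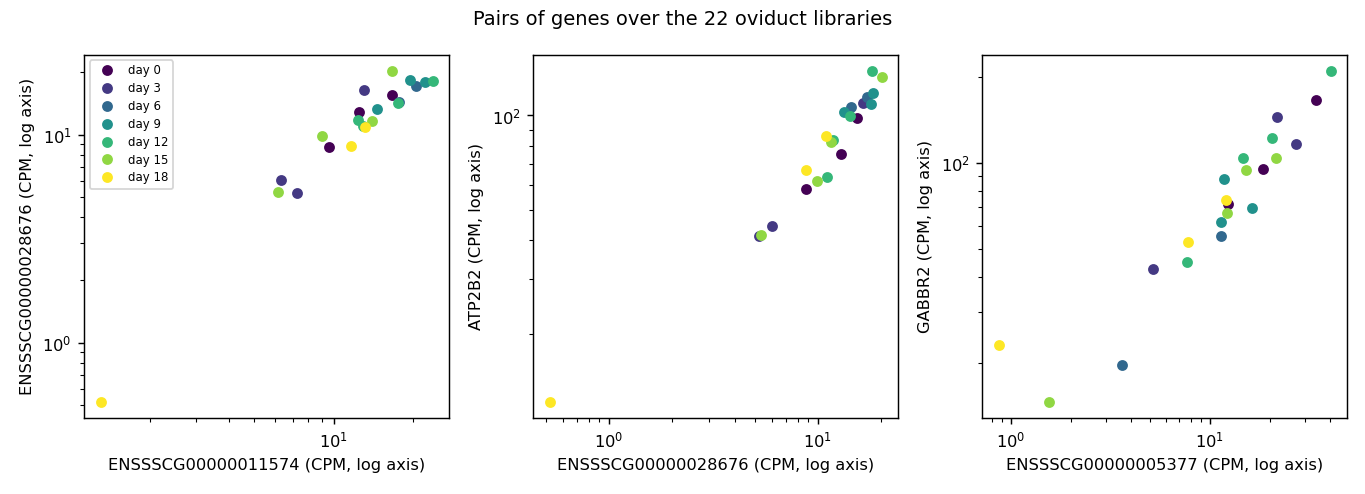
CPM (log axes) of pairs of genes in the 22 oviduct libraries, coloured by day: ENSSSCG00000028676 against ENSSSCG00000011574, ATP2B2 against ENSSSCG00000028676, and GABBR2 against ENSSSCG00000005377. The points form narrow bands, with day removed r = 0.966, 0.98 and 0.954, and a library of day 18 lies at the lower end of the first and second panels.

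LRRC2 had r = 0.908 (rho 0.848, and r = 0.834 without the 2 farthest libraries) with ENPP2, the secreted enzyme that makes lysophosphatidic acid, and r = 0.882 (rho 0.846) with OCLN, a tight junction protein. OCLN was not confined to the oviduct, with an average of 184 CPM in the endometrium against 134 CPM in the oviduct and 3.83 CPM in the ovary. ENSSSCG00000016514 and ENSSSCG00000003496 had no such close partner. The best named genes were EPB41L2, a membrane skeleton protein, with r = 0.805 for ENSSSCG00000016514, and SOHLH2, a transcription factor known from germ cells, with r = 0.806 for ENSSSCG00000003496. Of the oocyte list, only GDF9 and ZP2 were tested in the oviduct, and neither was highest in the ovary. GDF9 averaged 42.6 CPM in the oviduct, 34.8 CPM in the endometrium and 22.9 CPM in the ovary, and ZP2 4.01, 1.24 and 2.19 CPM. ZP3 and BMP15, the rest of the list, averaged 0.0286 and 0.135 CPM in the oviduct. ENSSSCG00000016514 and ENSSSCG00000003496 both went with the score of this list. ENSSSCG00000016514 had r = 0.501 with it (rho 0.555, and 0.75 without the 2 farthest libraries) and ENSSSCG00000003496 had r = 0.68 (rho 0.575, and 0.488 without them).

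Against lists of cilium and cell type genes, the 6 genes fell apart in the same way. The score of a list was the mean log2(CPM + 1) of its genes with the day average removed. ENSSSCG00000028676 had r = 0.837 with the inner dynein arms and nexin-dynein regulatory complex (rho 0.828, and r = 0.758 without the 2 farthest libraries), r = 0.776 with the outer dynein arms and r = 0.74 with radial spokes and central pair, the motor, linker and core parts of the beating axoneme. ENSSSCG00000011574 had r = 0.781, 0.704 and 0.723 with the inner arms, the radial spokes and the outer arms. Both had lower r with the dynein assembly factors (0.637 and 0.588), microtubule inner proteins (0.438 and 0.351) and regulators of multiciliated cells (0.224 and 0.257). LRRC2 had r between 0.302 and 0.554 with the axonemal and assembly lists, and -0.18 with the regulators. ENSSSCG00000003496 and ENSSSCG00000016514 had an absolute r of at most 0.205 with all 6 cilium lists. ENSSSCG00000005377 had its highest r, 0.697, with the oviduct secretory products (rho 0.557, and r = 0.422 without the 2 farthest libraries). With the secretory epithelium list its r was 0.427 (rho 0.327).

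Smooth muscle markers moved the other way in 4 of the 6. Their r was -0.747 with LRRC2 (rho -0.735, and -0.604 without the 2 farthest libraries), -0.584 with ENSSSCG00000028676, -0.573 with ENSSSCG00000011574 and -0.495 with ENSSSCG00000005377, and -0.15 and -0.139 with the remaining ENSSSCG00000016514 and ENSSSCG00000003496. PECAM1, the endothelial marker that could be looked up, had r = -0.805 with ENSSSCG00000028676, -0.784 with ENSSSCG00000011574 and -0.608 with ENSSSCG00000005377. With the rest its r was between -0.386 and -0.0789. The library numbered 2 of day 18 was the lowest of all 22 for ENSSSCG00000005377, ENSSSCG00000011574, ENSSSCG00000028676 and LRRC2, and the one numbered 3 of day 15 was among the 3 lowest for the same 4 genes. Their smooth muscle markers summed to 19660 and 27292 CPM, where the 22 libraries ran from 1040 to 27300 CPM. Their ciliated cell markers summed to 1390 and 1579 CPM, where the range was 1390 to 2720 CPM. Not all libraries followed this. The library numbered 2 of day 0 had 21824.5 CPM of smooth muscle markers but was not among the 3 lowest for any of the 6 genes. The library numbered 2 of day 12 had 1411.6 CPM of ciliated cell markers and 1403.7 CPM of smooth muscle markers. It had the highest summed level of the 6 genes, 123.9 CPM. The part of tissue composition in the spread of these genes was not tested.

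The cilium and secretion lists were matched by symbol, so the 5 members without a symbol could not be found on them, and LRRC2 is on none. Genes of these lists were also read in the other tissues. Genes of the outer dynein arms that could be looked up (5 of 14) summed to a median of 975 CPM in the oviduct, 207 CPM in the endometrium and 39.7 CPM in the ovary. For the inner arms (9 of 13) the medians were 1520, 283 and 48.6 CPM, for radial spokes and central pair (8 of 12) 550, 131 and 11.4 CPM, for microtubule inner proteins (9 of 13) 915, 178 and 13.7 CPM, and for dynein assembly (5 of 9) 537, 93 and 8.98 CPM. The regulators of multiciliated cells (7 of 10) had 1670, 273 and 10.2 CPM, and the secretory products (5 of 9) had 19200, 1180 and 1570 CPM, in the same order. Between days 3, 6, 12, 15 and 18, edgeR called 0 genes of the 5 structural and assembly lists, 2 of the 7 regulators and 2 of the 5 secretory products, against 15.3% of all genes tested. The median summed level of each of these lists in the ovary and the endometrium was above that of the 6 genes. The choice of genes led to this, since only the 6 were held to at most 1 CPM there.

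The limits cut close to some genes. ENSSSCG00000011574, at 0.942 CPM in the ovary, was the member nearest the limit of 1 CPM, and LRRC2, at 5.44 CPM on day 18, was the nearest to 5 CPM. Just outside lay CRB2, a polarity protein of epithelia, and ENSSSCG00000009333, at 1.2 and 1.42 CPM in the ovary of day 15. Without the library numbered 1 of that group, both met all 4 limits. Also outside were HEPH, a ferroxidase of the cell membrane, and GSX2, a homeobox transcription factor, at 4.72 and 4.14 CPM on their lowest oviduct day. ENSSSCG00000000248 and ENSSSCG00000004299 missed the limit of 2 on the highest day, with ratios of 2.05 and 2.09, and ENSSSCG00000016514 and LRRC2 were the members nearest to it with 1.67 and 1.59. No gene failed the ratio of day 9 to day 0 alone, and the members nearest to its bounds were ENSSSCG00000003496 at 0.597 and ENSSSCG00000005377 at 0.621 on the lower side.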

How the data were processed

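RNA of oviduct, endometrium and ovary was sequenced by the authors. After trimming of the first bases, reads were aligned with TopHat against pig genome and Ensembl transcripts, and the authors deposited raw counts of each gene in each library, whole numbers that were neither normalised nor pooled. The submitters' processing notes name featureCounts; its settings, strand included, are not given in the sources used here. The labels list 67 samples and the count file has 66 columns, whose names give tissue and day; 1 further endometrium sample was not analysed here. Among 74 pairs of libraries of the same group, 0 were identical, and the lowest chi-squared per degree of freedom was 10.8.

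The members and gene lists were chosen with earlier results of these data known, and all members are named. A table of gene names matched 11804 of 25322 identifiers and 1 of the 6 members. Oviduct totals ran from 8962103 to 11573086 counts. All 22 oviduct libraries were fitted in 1 model with edgeR 4.0.16 (R 4.3.3; TMM, filterByExpr, glmQLFit with robust estimation, glmQLFTest, Benjamini-Hochberg adjustment). Intervals cover 95%. Counts were simulated over 15665 genes, with changes placed on day 12 only. Against day 0, 28 of 100 genes changed by 2-fold and 74 of 100 changed by 4-fold were called on day 12, with 3 false calls. The changed genes were drawn from all genes tested, with a median biological coefficient of variation of 0.252, against 0.405 to 0.846 for the 6. Detection of a change in genes as variable as the 6 was not measured separately. Day 3 was given no change in these counts, and 0 genes were called for day 3 against day 0. Detection of a change on day 3 was therefore not tested. Correlations used Python 3.11.15 and scipy 1.17.1. Alternatives were DESeq2 1.42.0, its size factors, no filter, other limits, fewer days, a replicate block and leaving out each library. Reads carry no molecular identifiers, so counting intervals and floors cover counting error only. A result on 1 named gene is not reported here.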

Additional observations from a re-analysis of the deposited data

Results flagged for a closer look

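Libraries far from the others of their group were sought in the groups of 4, in which the gap to the nearest library was divided by the range of the group and set against Dixon's critical value for 4 samples. Of 28 combinations of a gene and a group with any range, 3 passed, where chance flags about 1 in 20 groups. ENSSSCG00000011574 in the ovary of day 15 had 3.59 CPM in the library numbered 1 against 0 to 0.0952 CPM in the others, a share of 0.973 of the range. In the endometrium of day 15, ENSSSCG00000011574 and ENSSSCG00000028676 each had 1 count in the library numbered 3 and none in the others, a share of 1 of the range that rests on a single read.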

How the results depend on the processing

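The number of genes that meet the limits was 5 with TMM-scaled CPM (without ENSSSCG00000003496) and 7 with group medians (5 of the 6, with CRB2 and ENSSSCG00000009333 added). It was 0 when every library had to meet both level limits on its own, 0 with at most 0.5 CPM in the other tissues, and 0 with at least 10 CPM in the oviduct. With a library left out it ran from 3 to 8, and was 3 without the oviduct library numbered 2 of day 6, which leaves that day with a single library. There 2 of the 6 were kept, ENSSSCG00000003496, ENSSSCG00000005377, ENSSSCG00000016514 and LRRC2 were lost, and ENSSSCG00000004299 was added. The number was 8 without the ovary library numbered 1 of day 15, where all 6 were kept and CRB2 and ENSSSCG00000009333 were added. The count of the 6 called was 1 in place of 0 for day 12 against day 0 in a fit of only the days compared. With a library left out, it ran from 0 to 1 for day 18 against day 12 and for days 3, 6, 12, 15 and 18 together. A lone library of a day was assumed to vary like those of other days. In the other alternatives run the counts of the 6 were as reported. Leaving out a library turned the sign of 13 log2 fold changes. Against day 0, they ran on day 3 from -0.669 to 0.238 (ENSSSCG00000005377) and from -0.121 to 1 (ENSSSCG00000016514), on day 6 from -1.652 to 0.603 (ENSSSCG00000016514) and from -0.139 to 0.243 (ENSSSCG00000028676), and on day 9 from -0.28 to 0.586 (ENSSSCG00000016514) and from -0.035 to 0.347 (ENSSSCG00000028676). On day 12 they ran from -0.908 to 0.144 (ENSSSCG00000005377), from -0.134 to 0.34 (ENSSSCG00000011574), from -0.275 to 0.107 (ENSSSCG00000028676) and from -0.083 to 0.361 (LRRC2), and on day 15 from -0.637 to 0.039 (LRRC2). For day 12 against day 3 they ran from -1.205 to 0.461 (ENSSSCG00000003496) and from -0.646 to 0.312 (ENSSSCG00000005377). Over all genes, calls on days 3, 6, 9, 15 and 18 against day 0 and on day 12 against day 3 were 297, 888, 1873, 1521, 889 and 1247 with DESeq2 in place of 47, 339, 1144, 908, 36 and 559. In fits of only the days compared, calls on days 3, 6, 9, 12, 15 and 18 against day 0 were 14, 1309, 2492, 4064, 377 and 0, those on day 18 against day 12 were 1175 in place of 3505, and those among days 3, 6, 12, 15 and 18 were 671 in place of 2404. With the replicate block, calls were 9 on day 18 against day 0 and 281 on day 12 against day 3. The median r between members ran from 0.156 (without the library numbered 3 of day 15) to 0.388 with a library left out. The cause of these changes was not tested. Same-numbered oviduct libraries of different days did not deviate together (mean r of 0.005, from -0.318 to 0.327, against -0.002 for different numbers, and 5 of 22 libraries correlated best with their own number). With the number as a replicate block, 0 of the 6 were called in every comparison, and the log2 fold change changed sign to -0.058 for ENSSSCG00000011574 (day 12 against day 0) and to -1.105 for ENSSSCG00000003496 (day 12 against day 3).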
